A study of Mus musculus with 12 samples.

Results

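The genes described here encode the proteins of the cytosolic ribosome. They were taken from the deposited count table by symbol: *Rpl* or *Rps* followed by a number and at most 1 letter a, x or l, the stalk genes *Rplp0*, *Rplp1* and *Rplp2*, and *Rpsa*, leaving out symbols that mark a pseudogene. The rule took 80 of 23086 symbols, 49 for the large and 31 for the small subunit. A filter on low counts left 77 for testing, 47 large and 30 small. It left out *Rpl26*, *Rpl3l* and *Rps27*, whose few counts are given below. A handful of ribosomal protein genes carry symbols outside the rule, among them *Fau* and *Rps3a1*, and are described apart.

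The libraries came from embryoid bodies, floating clumps of differentiating cells, made over 2 days from mouse A2lox.cre embryonic stem cells. Doxycycline, an antibiotic, turns on the transgene that such cells carry. The transgene was wild-type FLAG-*Lhx1* in one line and FLAG-*Lhx1* mutant in the other, with no description of the mutation in the labels, where *Lhx1* encodes a homeodomain transcription factor needed for head formation. Each line was kept without doxycycline or given it for 16 h, which made 4 groups of 3 libraries, and all 4 groups carry a transgene. The lines are separate stem cell lines, so a difference between them cannot be told apart from other differences between the lines. The labels do not say whether replicates were grown separately, and p-values therefore measure a spread between libraries that may be technical.

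A ribosome joins a large subunit, which forms peptide bonds, to a small subunit, which reads the messenger RNA. Each subunit is built in the nucleolus from ribosomal RNA and about equal amounts of its proteins, so cells hold the mRNAs of ribosomal proteins at similar and high levels. Most of these mRNAs begin with a run of pyrimidines, the 5′ terminal oligopyrimidine tract, through which the mTOR pathway controls their translation. Rapidly dividing stem cells spend much of their transcription on these genes. Many ribosomal protein genes have near-identical processed copies elsewhere in the genome.

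Start sites are shown here for 6 genes. They are the single member that passed the test in a doxycycline response (*Rps21*) and 1 that was higher in the mutant line (*Rps4x*). The other 4, lower in the mutant line, had at least 975 counts in every library (*Rps6*, *Rpl38*, *Rpl13*, *Rplp0*). Each stretch runs 5′ to 3′ from 60 bases before to 20 bases after the annotated RefSeq start, on the gene's own strand of GRCm38.p6 (the mm10 build). Capitals mark a pyrimidine run beginning with C at the start and the letters CCGGAAG, a core bound by ETS factors, on either strand. *Rps21* has 2 annotated starts, and the other, not shown, has no such pyrimidine run at the start.
*Rps21*, chr2:180257319-180257398, plus strand: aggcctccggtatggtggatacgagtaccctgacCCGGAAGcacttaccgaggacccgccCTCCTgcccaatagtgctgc
*Rps6*, chr4:86857348-86857427, minus strand: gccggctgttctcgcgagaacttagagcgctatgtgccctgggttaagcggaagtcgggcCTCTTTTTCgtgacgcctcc
*Rpl38*, chr11:114668520-114668599, plus strand: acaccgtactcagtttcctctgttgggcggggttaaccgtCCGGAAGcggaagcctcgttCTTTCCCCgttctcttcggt
*Rpl13*, chr8:123102290-123102369, plus strand: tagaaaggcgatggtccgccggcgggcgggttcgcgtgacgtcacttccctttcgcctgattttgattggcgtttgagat
*Rplp0*, chr5:115559407-115559486, plus strand: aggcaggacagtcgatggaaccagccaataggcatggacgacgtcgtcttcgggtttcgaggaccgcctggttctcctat
*Rps4x*, chrX:102189372-102189451, minus strand: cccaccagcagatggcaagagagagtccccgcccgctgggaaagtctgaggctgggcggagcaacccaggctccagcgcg

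The RefSeq table matched 60 of the 80 members, with 72 annotated starts. A C followed by 4 pyrimidines stood exactly at 13 of these starts (18.1%), against 2.51% of 32851 starts of all genes in the table. CCGGAAG, searched on both strands in the 300 bases from 250 before to 50 after the start, was present at 36.1% of member starts and 8.86% of all starts. AAGATGGC, a core bound by YY1, was present in the same window at 9.72% and 2.75%. The ETS and YY1 letters can overlap, since the first ends and the other begins with AAG. An annotated start can lie a few bases from the true one, so the absence of these letters says only that they are not in this window.

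Members with and without a pyrimidine start had close medians between the lines. Without doxycycline, 8 of 12 tested members with it were called lower in the mutant line, median log2 difference −0.16, and 31 of 45 without it, median −0.17. For the ETS core the counts were 18 of 24 and 21 of 33, with medians of −0.16 in both. These are descriptions of small groups and the differences between them were not tested.

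The 12 libraries held 4289984 to 4850393 counts each. *Lhx1* stood at 0.4 CPM in each mutant library without doxycycline, 1.1 to 3.3 CPM in the wild-type ones, and 234.5 to 306.2 CPM in the 6 libraries with it, as the labels say. CPM are counts divided by the library size after TMM adjustment and brought to the same scale for all libraries, TMM being a scaling that assumes most genes do not change. The second wild-type library with doxycycline stood apart. *Rn45s*, the ribosomal RNA precursor, took 1.45% of its counts against 0.0884% to 0.265% in the other 11. Its counts differed from those of its replicates by a chi-square per degree of freedom of 5.84 and 6.28, where other replicate pairs gave 1.11 to 2.41. Results that rest on it are given with and without it.

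Epiblast and pluripotency markers were high in every library, summing to 4879 to 5559 CPM over 10 genes, with no marker at 0. Over all genes the lines differed widely. Of 12322 genes tested, 22.6% were called lower and 23.0% higher in the mutant line without doxycycline, at a Benjamini-Hochberg adjusted p under 0.05 in edgeR's quasi-likelihood test, and 22.4% and 21.9% with it. Members are read against those shares.

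Levels were high and even across most members. Per kilobase of the shortest principal mRNA, the 77 tested members had a mean level of 9.07 to 3474 CPM per kb with a median of 1406. The highest were *Rplp1*, an acidic stalk protein that recruits elongation factors (3474 CPM per kb), and *Rps2*, a protein of the mRNA entry site (3447 CPM per kb). *Rps6*, the substrate of S6 kinase, followed in sixth place with 2400 CPM per kb. *Rplp0*, the base of the stalk, had 2178 CPM per kb and *Rplp2*, its other acidic partner, 1770 CPM per kb.

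The ubiquitin fusion *Rps27a* had 2020 CPM per kb. *Rpl5* (915.1 CPM per kb) and *Rpl11* (1248 CPM per kb), which join the 5S ribosomal RNA and can bind the p53 regulator MDM2, stood below the first and near the others. *Rps19*, the gene most often mutated in Diamond-Blackfan anaemia, had 1489 CPM per kb, and *Rpl22*, which is dispensable for general translation, 1247 CPM per kb. Levels per kb depend on which mRNA the gene makes, and the labels do not name the annotation used for counting.

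A few members had almost no counts. In every library 7 members stayed under 100 counts, while the other 73 had at least 975. Among the 7 are 3 paralogs known mainly from other tissues, *Rpl3l* (striated muscle), *Rpl10l* and *Rpl39l* (testis). The other 4, *Rpl26*, *Rpl30*, *Rpl34* and *Rps27*, are core subunits of every ribosome.

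*Rps27* had 3 to 10 counts a library and *Rpl26* had 0 to 10. *Rpl30* had 14 to 31 and *Rpl34* had 16 to 33. By contrast *Rps27l*, the p53-responsive paralog of *Rps27*, had 208.3 to 254.1 CPM. These 4 low values are not readings of the genes' activity that can be set beside the others.

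Sequence shared with other genes was checked as a measured fact. Of the 50-base windows of each mRNA, 98.6% for *Rps27*, 76.4% for *Rpl30*, 71.3% for *Rpl26* and 50.6% for *Rpl34* also occur in another annotated gene. The 73 members with high counts ranged from 0% to 95.1% with a median of 57.4%. The ranges overlap, and the part of shared sequence in the low counts was not tested. Of all members, 50 share at least 50% of their windows, so counts of most ribosomal protein genes may be lost to or gained from copies and are uncertain to that extent.

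The share of all counts that fell in the 80 members was lower in the mutant line when neither line had doxycycline. It was 8.996%, 9.09% and 9.47% in the wild-type libraries without doxycycline and 8.24%, 8.22% and 8.75% in the mutant ones, means 9.19% ± 0.25 and 8.41% ± 0.30 (SD, n = 3 each). The groups did not overlap, and the mutant mean was lower by 0.781 percentage points. An exact two-sided permutation test gave p = 0.1, the smallest that 3 against 3 libraries allow, and 0.3 after adjustment over the 6 tests of the share.

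With doxycycline the wild-type libraries had 9.32%, 8.19% and 9.001% and the mutant ones 8.60%, 8.82% and 8.58%. The wild-type range, set at its low end by the library that stood apart, enclosed all 3 mutant values. The means of 8.84% ± 0.59 and 8.66% ± 0.13 (SD, n = 3 each) differed by 0.174 percentage points (exact permutation p = 0.6). Over both treatments, with labels permuted within each, the mutant line was lower by 0.477 points (exact permutation p = 0.06, adjusted 0.3). Over TMM-adjusted library sizes, the scaling of the single-gene tests, it was −0.747 points (exact permutation p = 0.02), and −1.07 points without and −0.427 with doxycycline. Over library totals, where all libraries gave 0.477 points, the mutant line was lower by 0.640 points without the second wild-type library with doxycycline. The exact permutation p was 0.005 before adjustment, the smallest those libraries allow. That library has the lowest share of its line, so leaving it out widens the gap by construction.

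Doxycycline did not move the share beyond the spread of the libraries. The difference with minus without doxycycline was −0.349 points in the wild-type (exact permutation p = 0.5) and 0.257 points in the mutant line (exact permutation p = 0.3). Leaving out both the low wild-type library with doxycycline and replicate 3 without it, the highest, turned the wild-type difference to 0.118 points higher. Leaving out the lowest and the highest library in this way raises that difference by construction. In bulk RNA, fewer cells with high ribosomal protein mRNA and less of it per cell cannot be told apart.

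The ratio of large to small subunit counts separated the lines in both treatments. It was 1.489, 1.480 and 1.494 in the wild-type line without doxycycline and 1.489, 1.486 and 1.489 with it. In the mutant line it was 1.449, 1.446 and 1.458 without and 1.451, 1.468 and 1.451 with doxycycline. All 6 mutant libraries lay below all 6 wild-type libraries. The mutant line was lower by 0.0342, or 2.30%, within treatments (exact stratified permutation p = 0.005, the smallest this design gives, adjusted 0.03 over 6 tests).

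The gap was smaller without the 9 members on chromosomes 8 and 11, of which 8 belong to the large subunit. Among them are *Rpl13* on chromosome 8 and *Rpl19*, *Rpl23*, *Rpl23a*, *Rpl26*, *Rpl27* and *Rpl38* on chromosome 11, and the small-subunit gene is *Rps27a*. Without these 9, an alternative added after the values were seen, the line difference was −0.00804 (exact stratified permutation p = 0.06). The ratio was then 1.289 to 1.308 in wild-type and 1.284 to 1.295 in mutant libraries without doxycycline, and those ranges overlapped. Doxycycline left the ratio of all members within the spread of the libraries in both lines, with differences of 0.00029 in the wild-type (exact permutation p = 1) and 0.0062 in the mutant line (exact permutation p = 0.5).

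**Figure D1:**
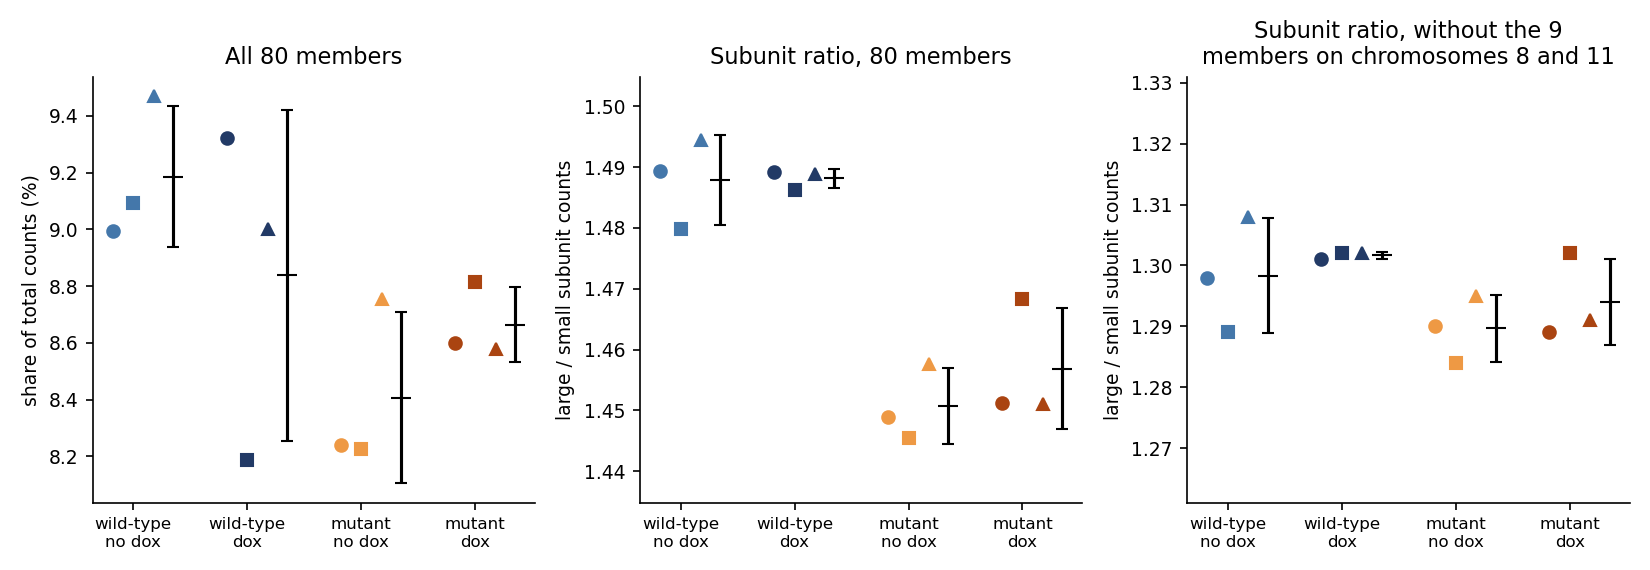
Share of total counts in the 80 members (left, percent), large to small subunit count ratio (middle) and the same ratio without the 9 members on chromosomes 8 and 11 (right) in each library. Points are libraries (circle, square and triangle for replicates 1, 2 and 3) and bars are the mean ± SD of 3; axes do not start at 0. The lines are apart in the middle panel, 1.446 to 1.468 against 1.480 to 1.494, and overlap in the right panel.

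Doxycycline lowered 1 member in the wild-type line. *Rps21*, a small-subunit protein on chromosome 2 (180257377 to 180258445, plus strand), had 561.8, 569.1 and 600.9 CPM without doxycycline and 536.6, 447.7 and 522.2 CPM with it. The groups did not overlap, with the second doxycycline library lowest. The log2 difference was −0.20 (SE 0.06, edgeR adjusted p = 0.0307). In the background 2.56% of genes were called lower, against 1 of 77 members.

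That call rests on single libraries. Without the second doxycycline library the *Rps21* difference was −0.13 (adjusted p = 0.169), without the third control −0.17 (adjusted p = 0.187), without the second control −0.21 (adjusted p = 0.0698), and without both the third control and the second doxycycline library −0.10 (adjusted p = 0.312), all in edgeR. For this gene the third control is the highest and the second doxycycline library the lowest of its group. Leaving them out shrinks the difference by construction. Without the first doxycycline library, 14 members were called lower, a count given without the share of all genes called in that fit. That library had the highest ribosomal share of its group, so leaving it out lowers the differences by construction.

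The other 76 members did not pass the test in the wild-type line. Of all 77, 71 had a value below 0 and the median was −0.058, against −0.0034 over all genes. Libraries of the groups did not overlap, lower with doxycycline, for 10 members, where 9.06% of all genes did so. The second doxycycline library was the lowest of the 6 wild-type libraries for 72 of 77 members, and the third control the highest for 47. Without the second doxycycline library the median was −0.015, and without both −0.00090. Leaving out a library that is lowest with doxycycline or highest without it raises the median by construction. These values are therefore no separate check of the downward lean.

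**Figure D2:**
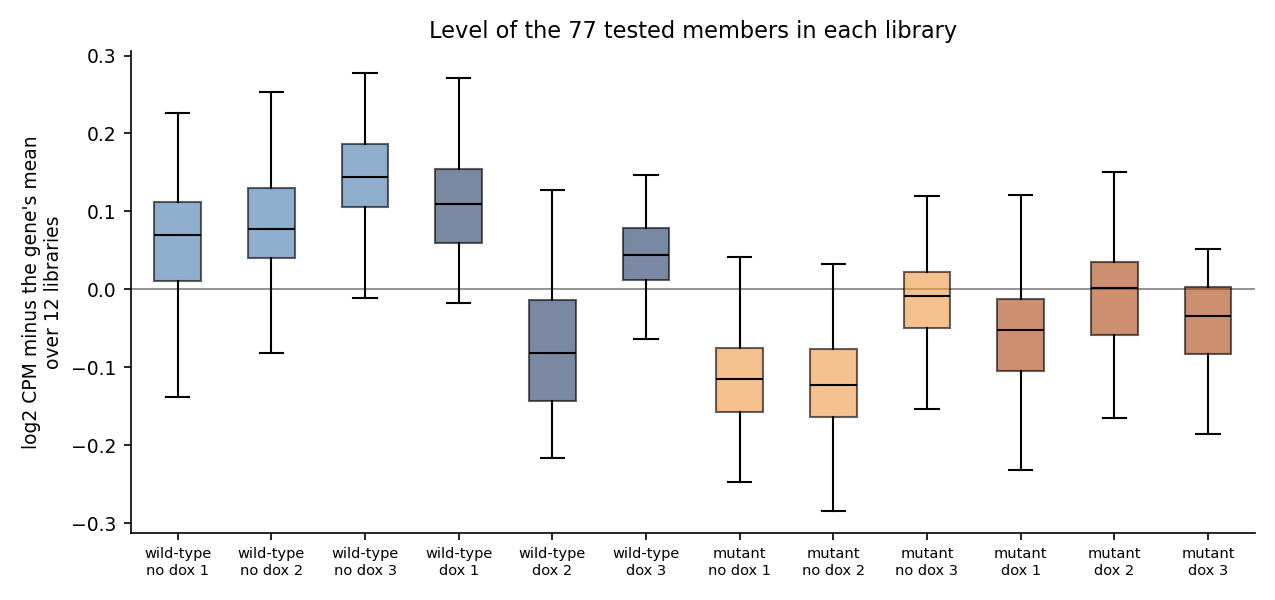
Level of the 77 tested members in each of the 12 libraries, as log2 CPM minus the gene's own mean over the libraries. Boxes give quartiles, the line is the median and whiskers reach to the farthest gene within 1.5 box lengths. The second wild-type library with doxycycline has a median of −0.081, below the other 5 wild-type libraries at 0.044 to 0.144.

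In the mutant line no member was called in either direction, where 0.0162% of all genes were. The smallest edgeR adjusted p was 0.999, 2 members had an unadjusted p under 0.05, and DESeq2 and limma-voom called none. Values of 69 of the 77 were above 0, with a median of 0.046 against −0.0015 over all genes. Libraries did not overlap, higher with doxycycline, for 6 members, where 5.30% of all genes did so. The first and second mutant libraries without doxycycline were each the lowest of the 6 for 35 members.

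*Rps21* was also the only member called in the test of the difference between the responses. In the mutant line it had 477.7, 471.2 and 512.7 CPM without doxycycline and 488.0, 553.3 and 520.6 CPM with it, ranges that overlap. The wild-type minus mutant response was −0.30 (SE 0.08, edgeR adjusted p = 0.0403), where 1.09% of all genes were called lower. It lost the call with any of 7 libraries left out. Without the second wild-type library with doxycycline it was −0.22 (adjusted p = 0.0522), without the second wild-type control −0.31 (adjusted p = 0.0698) and without the third one −0.27 (adjusted p = 0.150). Without the first mutant control it was −0.28 (adjusted p = 0.110), and without the second −0.27 (adjusted p = 0.107). Without the second mutant library with doxycycline it was −0.25 (adjusted p = 0.114), and without the third −0.30 (adjusted p = 0.0875). With all libraries it also missed the threshold in limma-voom (adjusted p = 0.0519) and with library totals in place of TMM (adjusted p = 0.0521). Without the first wild-type library with doxycycline, or without the third mutant control, 8 members were called lower. The share of all genes called in those fits is not given here.

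Between the lines without doxycycline, 53 of 77 members were lower in the mutant line and 1, *Rps4x*, was higher, where 22.6% and 23.0% of all genes were called. The median log2 difference of the members was −0.16 against 0.0035 over all genes, and 74 members had a value below 0. Libraries did not overlap, lower in the mutant line, for 58 members, where 25.6% of all genes did so. Counts were 33 of 47 in the large and 20 of 30 in the small subunit, with medians of −0.17 and −0.16, so the typical members of the subunits had close values. Most differences were small: the middle 50% of members lay between −0.25 and −0.11.

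With doxycycline 23 members were lower and 2 were higher, where 22.4% and 21.9% of all genes were. The median was −0.043 against 0.0090 over all genes, and 46 members were below 0. Libraries did not overlap, lower in the mutant line, for 21 members, where 25.6% of all genes did so. All 23 had also been called lower without doxycycline, while 30 were called lower there and did not pass here. The edgeR test of the difference between these 2 line comparisons is the difference of the responses above, in which *Rps21* alone was called. Without the second wild-type library with doxycycline 35 members were called lower with doxycycline and none higher, at a median of −0.095. That count is given without the share of all genes called in the same fit. The library left out is the lowest of its line for 72 of 77 members, so these differences fall by construction.

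**Figure D3:**
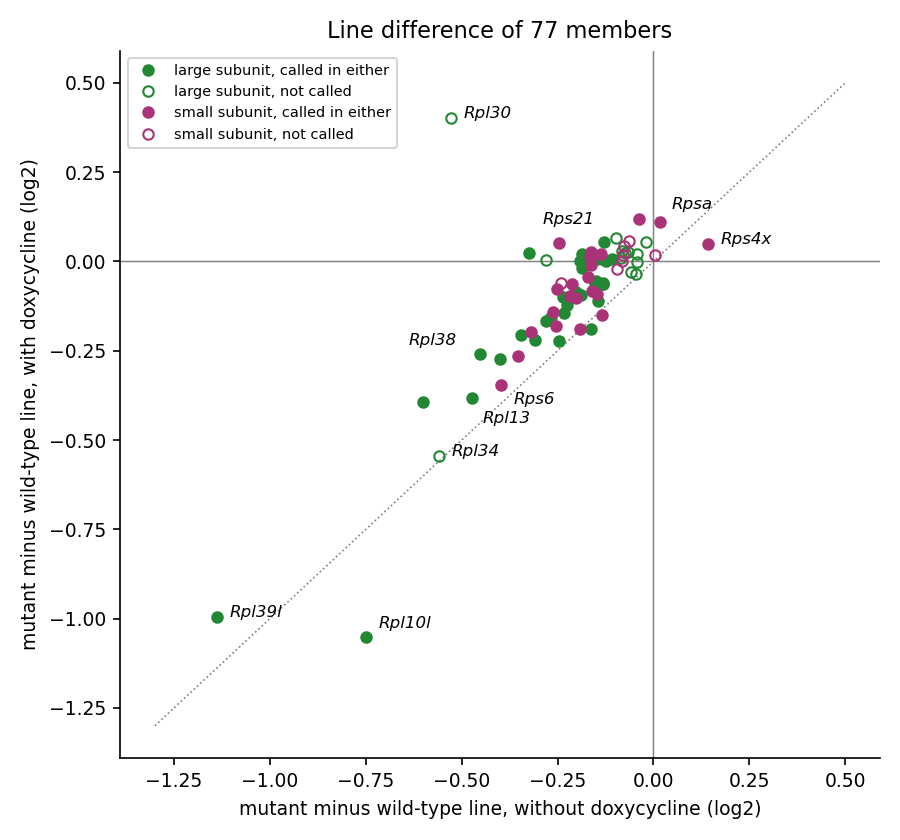
Log2 difference of the mutant minus the wild-type line for each of the 77 tested members, without (x axis) and with doxycycline (y axis). Filled points passed the test in at least 1 comparison, and the dotted line marks equal values. Most members lie left of 0, and more of them lie near 0 on the y axis.

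The largest differences belonged to 2 paralogs with few counts. *Rpl39l*, the testis-type copy of *Rpl39*, had 10.7, 11.3 and 9.19 CPM in the wild-type controls and 4.72, 4.27 and 5.13 CPM in the mutant controls. With doxycycline it had 9.60, 9.26 and 14.1 CPM against 5.04, 5.98 and 5.56 CPM. The lines did not overlap, with log2 differences of −1.14 (SE 0.21, edgeR adjusted p = 1.42e-05) and −0.996 (SE 0.20, adjusted p = 5.82e-05).

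*Rpl10l*, an intronless copy of *Rpl10* used in male germ cells, had 13.1, 14.5 and 13.9 CPM in wild-type and 8.37, 7.53 and 8.77 CPM in mutant controls. With doxycycline it had 15.3, 17.3 and 11.3 CPM in the wild-type and 7.016, 7.050 and 7.005 CPM in the mutant line. Its differences were −0.75 (SE 0.17, edgeR adjusted p = 0.000344) and −1.05 (SE 0.18, adjusted p = 2.20e-06), again with no overlap.

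Their parents are X-linked and behaved otherwise. *Rpl10*, a protein near the tRNA sites, had differences of −0.045 and −0.036, and *Rpl39*, of the exit tunnel, −0.097 and 0.065, and neither passed the test. *Rpl3l* was too low to test: its 3 libraries a group summed to 15 and 12 counts in the wild-type and 3 and 5 in the mutant line, without and with doxycycline. The ratio of mutant to wild-type was 0.184 (95% exact interval 0.0341 to 0.649) and 0.390 (0.108 to 1.19), intervals that cover counting error only. Its parent *Rpl3*, which reaches toward the peptidyl transferase centre, differed by −0.13 (edgeR adjusted p = 0.00845) and −0.062 (adjusted p = 0.231).

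Large differences were also found among members with at least 975 counts in every library. *Rpl13*, a large-subunit gene of chromosome 8 (123102350 to 123105244, plus strand), had 1707, 1739 and 1750 CPM against 1241, 1187 and 1312 CPM without doxycycline. With it the values were 1760, 1518 and 1695 against 1271, 1302 and 1243 CPM. The lines did not overlap, and the differences were −0.47 (SE 0.04, edgeR adjusted p = 5.20e-13) and −0.38 (SE 0.04, adjusted p = 3.75e-10).

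On chromosome 11, *Rpl38*, a small protein whose loss in mice alters *Hox* mRNA translation and the axial skeleton, had 411.0, 414.4 and 426.8 CPM in wild-type and 289.6, 289.2 and 336.2 CPM in mutant controls. Its differences were −0.45 (SE 0.05, edgeR adjusted p = 2.49e-09) and −0.26 (SE 0.05, adjusted p = 9.28e-05), with no overlap of the lines in either treatment. *Rpl19*, of the subunit interface, differed by −0.40 (SE 0.05, adjusted p = 1.72e-10) and −0.27 (SE 0.05, adjusted p = 1.58e-06), from 1625 to 1708 CPM in wild-type to 1205 to 1300 CPM in mutant controls. *Rps27a* differed by −0.35 (SE 0.04, adjusted p = 5.82e-10) and −0.26 (SE 0.04, adjusted p = 7.22e-07).

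In the small subunit *Rps6* differed most. It had 2378, 2385 and 2461 CPM in wild-type and 1798, 1821 and 1865 CPM in mutant controls, and 2508, 2165 and 2367 against 1820, 1874 and 1841 CPM with doxycycline. No mutant library reached a wild-type one. The differences were −0.40 (SE 0.04, edgeR adjusted p = 1.47e-11) and −0.35 (SE 0.04, adjusted p = 7.98e-10). The 22 tested genes within 5 Mb of *Rps6* had medians of −0.56 without and −0.42 with doxycycline, so *Rps6* lay above its neighbours by 0.16 and 0.077.

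All 3 stalk genes were lower in the mutant controls. *Rplp0* had 3319, 3299 and 3430 CPM against 2575, 2585 and 2742 CPM, a difference of −0.35 (SE 0.04, edgeR adjusted p = 3.91e-10), and −0.21 with doxycycline (SE 0.04, adjusted p = 4.10e-05). *Rplp1* differed by −0.28 (adjusted p = 3.67e-05) and −0.17 (adjusted p = 0.00835). *Rplp2* differed by −0.16 (adjusted p = 0.00930) without and by 0.024 with doxycycline, where it did not pass (adjusted p = 0.743).

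Other members of known roles had values from −0.19 to −0.064 in the controls, where the median of all members was −0.16. *Rpl5* differed by −0.11 (edgeR adjusted p = 0.0256) and *Rpl11* by −0.17 (adjusted p = 0.00647) in the controls, and with doxycycline their values were 0.0065 and 0.0094, not called. *Rps27l* differed by −0.15 (adjusted p = 0.0149) in the controls, with −0.091 (adjusted p = 0.141) under doxycycline. *Rpl36a*, an X-linked large-subunit gene, differed by −0.19 (adjusted p = 0.000930) in the controls. *Rps19* and *Rpl22*, at −0.064 and −0.084, did not pass.

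A few members ran the other way. *Rps4x*, X-linked in mice, had 1663, 1826 and 1722 CPM in wild-type and 1883, 1908 and 1961 CPM in mutant controls, a difference of 0.14 (SE 0.04, edgeR adjusted p = 0.00433). The groups did not overlap. Without the first wild-type control it was 0.11 (adjusted p = 0.0546), and with doxycycline 0.048 (adjusted p = 0.369).

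With doxycycline *Rpsa*, also known as the laminin receptor, had 2622, 2427 and 2582 CPM in the wild-type and 2721, 2775 and 2750 CPM in the mutant line. The difference was 0.11 (SE 0.04, edgeR adjusted p = 0.0174), and 0.016 without doxycycline. It lost the call without the second wild-type library (0.079, adjusted p = 0.0859) and without the second (0.11, adjusted p = 0.0632) or the third mutant library (0.11, adjusted p = 0.0504).

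*Rps14*, a protein of the small-subunit platform, was higher by 0.12 (SE 0.05, adjusted p = 0.0404) with doxycycline, 1005, 890.9 and 962.7 against 1044, 1035 and 1025 CPM. It lost the call without the second (0.072, adjusted p = 0.225) or the third wild-type library with doxycycline (0.12, adjusted p = 0.0764) and without any 1 of the 3 mutant ones (0.11 to 0.13, adjusted p 0.0693 to 0.110), and in DESeq2 (adjusted p = 0.0881). With TMM factors taken without chromosomes 8, 11, 14 and Y, neither *Rpsa* (0.082, adjusted p = 0.0867) nor *Rps14* (0.088, adjusted p = 0.131) was called.

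**Figure D4:**
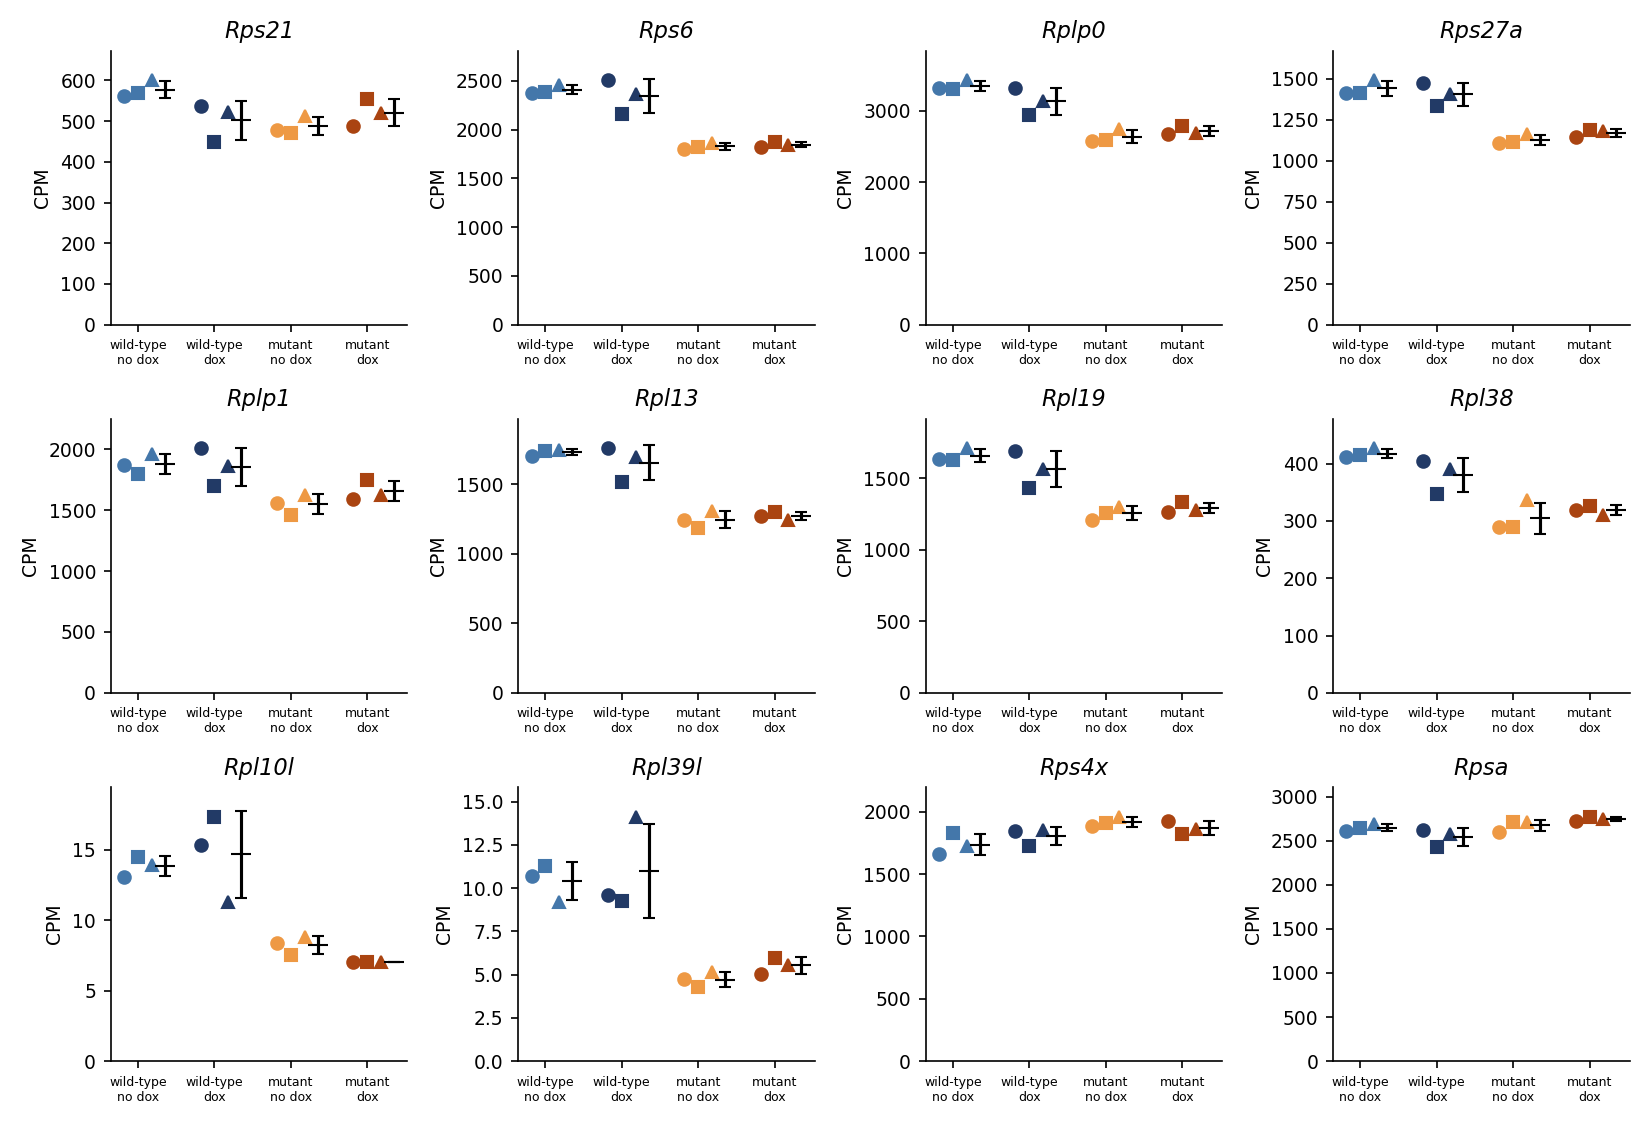
CPM of 12 members in each library, with the y axis from 0. Points are libraries (circle, square and triangle for replicates 1, 2 and 3), bars the mean ± SD of 3. In the wild-type line *Rpl13* lies at 1518 to 1760 CPM and in the mutant line at 1187 to 1312 CPM, while *Rps4x* and *Rpsa* lie close together in all groups.

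The line differences of the members were read beside those of their chromosomes. Over all other tested genes, the median log2 difference without doxycycline was −0.38 on chromosome 8 and −0.19 on chromosome 11, 0.49 on chromosome 14, and between −0.029 and 0.076 on each other chromosome but Y, where 8 genes had a median of −7.28. With doxycycline the medians on chromosomes 8, 11 and 14 were −0.37, −0.18 and 0.45. The cause of these chromosome-wide differences was not tested.

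All 8 tested members on chromosomes 8 and 11 were lower in the mutant line without doxycycline, at a median of −0.38, and 7 of 8 with it, at −0.26. Of the other tested genes there, 59.3% on chromosome 8 and 42.3% on chromosome 11 were lower without doxycycline, and 60.8% and 42.6% with it. On the other chromosomes apart from 14, 43 of 67 members were lower without doxycycline, at a median of −0.16. With it 15 of 67 were, at −0.019. Over all tested genes 22.6% and 22.4% were lower, so the count with doxycycline lay near that share. The 2 members on chromosome 14 were lower although the median of their chromosome was above 0. *Rps24*, a small-subunit protein, differed by −0.26 (edgeR adjusted p = 1.32e-05) and *Rpl15*, of the large subunit, by −0.14 (adjusted p = 0.00832) without doxycycline. Their own neighbours within 5 Mb had medians of −0.0019 (46 genes) and 0.098 (41 genes) without doxycycline, below the median of the chromosome. With doxycycline *Rps24* differed by −0.14 (adjusted p = 0.0144) and *Rpl15* by 0.0076, which did not pass.

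Set against tested genes within 5 Mb, 73 of 77 members lay below the median of their neighbours without doxycycline, with a median member minus neighbour difference of −0.17. On chromosomes 8 and 11 that difference was −0.15, close to the −0.17 on the other chromosomes apart from 14. With doxycycline 55 of 77 lay below their neighbours, with a median difference of −0.053, and −0.037 on chromosomes 8 and 11.

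**Figure D5:**
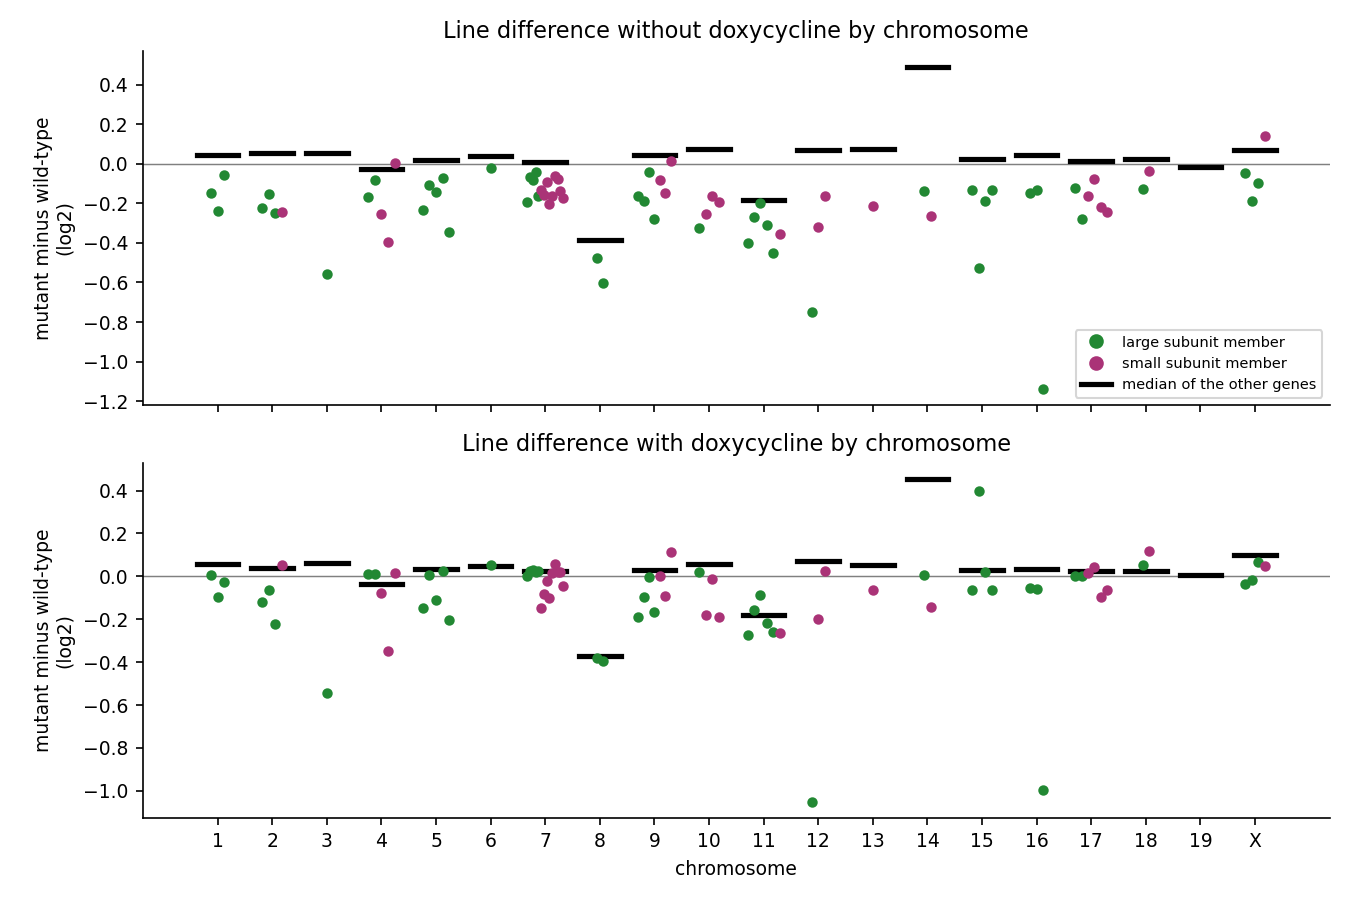
Log2 difference of the mutant minus the wild-type line for each tested member, by chromosome, without (top) and with doxycycline (bottom). Points are members, green for large and purple for small subunit, and black bars the median of all other tested genes of the chromosome. Members on chromosome 8 and 11 lie near or below low bars at −0.38 and −0.19 in the top panel, and those on chromosome 14 lie below a bar at 0.49.

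Ribosomal proteins with symbols outside the rule gave a like picture. Of 10 listed 6 were in the table and tested, and 4 were lower in the mutant controls, at a median of −0.15, and 3 with doxycycline. Among all genes 22.6% and 22.4% were lower. *Rpl22l1*, the paralog of *Rpl22*, differed by −0.16 (edgeR adjusted p = 0.0422), and *Fau*, the precursor of a small-subunit protein, by −0.10 (adjusted p = 0.220).

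Genes that act with the ribosome leaned the same way between the lines. Of 22 tested translation factors and other mRNAs with a 5′ pyrimidine tract, 15 were lower and 1 higher in the mutant controls. The median was −0.14, and with doxycycline 12 were lower and 1 higher. Over all genes 22.6% were lower and 23.0% higher in the controls, and 22.4% and 21.9% with doxycycline. *Npm1*, a nucleolar chaperone of ribosome assembly on chromosome 11, differed by −0.42 (edgeR adjusted p = 2.77e-14) and the elongation factor subunit *Eef1d* by −0.42 (adjusted p = 6.13e-12). The gene that was higher, *Tpt1* on chromosome 14, differed by 0.63 (adjusted p = 2.56e-19).

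Of 62 genes of ribosome assembly and RNA polymerase I, 33 were lower and 6 higher in the mutant controls, at a median of −0.19. With doxycycline 32 were lower and 3 higher. Of all genes tested, 22.6% were lower and 23.0% higher in the controls, and 22.4% and 21.9% with doxycycline. The smallest adjusted p-values were those of *Mybbp1a*, a nucleolar protein that binds MYB, on chromosome 11 (−0.56, edgeR adjusted p = 3.92e-17), *Nip7*, an assembly factor, on chromosome 8 (−0.70, adjusted p = 3.42e-15) and *Nob1*, the nuclease that finishes the small-subunit RNA, on chromosome 8 (−0.63, adjusted p = 1.59e-12). Away from chromosomes 8 and 11, 26 of 54 were lower and 5 higher. Among mitochondrial ribosomal proteins, which build a separate ribosome, 45 of 76 were lower and 2 higher in the controls, at a median of −0.28. With doxycycline 28 were lower and 3 higher. All 12 on chromosomes 8 and 11 were lower in the controls, and 33 of 64 elsewhere, at a median of −0.21. With doxycycline 20 of those 64 were lower.

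Of 21 genes of the mTOR and MYC pathways that control ribosomal protein mRNAs, 8 were lower and 2 higher in the mutant controls. Of the 5 on chromosomes 8 and 11, 4 were lower, and elsewhere 4 of 16 were lower at a median of −0.034, where 22.6% of all genes were. *Eif4ebp1*, a translational repressor under mTOR control on chromosome 8, differed by −0.68 (edgeR adjusted p = 2.88e-16) and *Larp1*, which binds 5′ pyrimidine tracts, on chromosome 11, by −0.36 (adjusted p = 6.18e-09). *Myc*, which drives transcription of ribosome genes, was higher by 0.57 (adjusted p = 3.85e-06). Of 9 tested hosts of small nucleolar RNAs 4 were lower and 0 higher, where 22.6% and 23.0% of all genes were. All 9 had values below 0, with a median of −0.20. Of 16 p53 targets and regulators 4 were lower and 4 higher, near the 22.6% and 23.0% of all genes.

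In the wild-type response 340 of the 12322 genes tested were higher and 315 lower, and of these lists each had at most 2 members called, too few to set against that background. In the wild-type line *Utp14a*, an assembly factor, differed by −0.27 (edgeR adjusted p = 0.000121), *Eif4ebp1* by −0.28 (adjusted p = 9.89e-05), *Deptor*, an inhibitor of mTOR, by −0.45 (adjusted p = 0.0426), and the p53 targets *Pmaip1* and *Bax* by 0.40 (adjusted p = 0.000164) and −0.16 (adjusted p = 0.0442). No translation factor, mitochondrial ribosomal protein or nucleolar RNA host was called there. In the mutant response none of these genes was called.

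Some markers of other cell types differed between the lines. The summed level of 6 neural ectoderm markers, none at 0 in a group, was 114.8 to 130.1 CPM in wild-type controls. In mutant controls it was 256.9 to 279.1 CPM, mostly through *Nes* (1.94, edgeR adjusted p = 3.65e-31). Only 4 of these were tested, of which 3 were called higher in the mutant controls and 1 had a value below 0. With doxycycline 2 were called higher and 2 lower. Of 6 germ cell markers the sums were 95.7 to 99.7 and 129.5 to 137.7 CPM, but 4 of the 6 had values below 0, with a median of −0.27. *Sycp3* was called higher (1.72, edgeR adjusted p = 1.89e-22) and *Dppa3* lower (−2.25, adjusted p = 3.57e-14). Of 6 blood and endothelium markers they were 43.3 to 48.9 and 22.4 to 32.1 CPM. Only 3 of these were tested, of which *Pecam1* was called lower (−1.11, edgeR adjusted p = 1.97e-10) and the other two had values above 0, with the globins *Hbb-bh1* and *Hba-x* at 0 in all groups.

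Endoderm (10 genes), trophoblast (8) and fibroblast (7) markers summed to at most 33.1 CPM in a library, with *Tpbpa* at 0 in all groups, *Elf5* at 0 in 3 of the 4 and *Postn* at 0 in both mutant groups. The naive pluripotency gene *Zfp42* differed by −1.96 (edgeR adjusted p = 3.26e-31) and *Fgf5*, of the later epiblast, by 1.001 (adjusted p = 1.79e-20). The part of these differences in those of the ribosomal protein genes was not tested.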

How the data were processed

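The authors deposited raw read counts per gene symbol for 12 libraries. TruSeq RNA Sample Prep Kit libraries were made from RNeasy Micro Kit RNA, per the labels' protocols. Trimmomatic 0.33, TopHat2 2.1.1, limma and the mm10 genome were used, per the submitters' processing notes. Not given in the sources used here are the counter, the annotation and the use of strand, so antisense and overlapping genes can share counts.

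One model with a mean for each group was fitted to all 12 libraries by edgeR's quasi-likelihood test (edgeR 4.0.16, R 4.3.3) with TMM scaling, robust estimation and filterByExpr (minimum count 10, total 15), which left 12322 genes holding 99.8% of counts. The threshold for a call was 0.05 for the p adjusted by Benjamini-Hochberg over all genes. Standard errors are the log2 difference divided by the square root of F. The fit was tested on simulated data. Shares and ratios, 1 value a library, were compared by exact two-sided permutation tests, with values adjusted over 6 tests for each measure.

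Alternatives were other scalings, no filter, DESeq2 1.42.0, limma-voom 3.58.1, a replicate block and left-out libraries. Chromosomes came from GENCODE M21, matched by symbol for 94.1% of tested genes, and start sites from RefSeq (GRCm38.p6).

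Genes named are the called members of each comparison (all if 10 or fewer, otherwise the 6 largest in each direction with at least 10 CPM), a set list of stalk, 5S, X-linked and paralogous genes, and up to 4 called genes per list with the smallest adjusted p, of which the text gives a selection. Some genes that meet the rule are not reported here. *Rps24*, *Rpl15*, *Rpl26*, *Rpl30*, *Rpl34*, *Rps2* and the members on chromosomes 8 and 11 were added after seeing the values. Members and lists were chosen with earlier results of these data known. No pair of replicates agreed within sampling noise.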

Additional observations from a re-analysis of the deposited data

Results flagged for a closer look

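*Rps21* was the only member that passed the test of the difference between the responses. Its wild-type minus mutant response in log2 was −0.30 (SE 0.08, edgeR adjusted p = 0.0403). The wild-type response was −0.20 and the mutant one 0.096 (adjusted p = 0.999). The wild-type libraries without doxycycline, at 561.8 to 600.9 CPM, lay above the mutant ones at 471.2 to 512.7 CPM, and with doxycycline the lines overlapped. The second wild-type library with doxycycline, at 447.7 CPM, was the lowest of all 12 for this gene, and without it the difference was −0.22 (adjusted p = 0.0522). The source of that library's low level was not tested. The call was also lost in several other fits with 1 library left out, in limma-voom and with library totals. Of all 77 members 73 had a difference of the responses below 0, at a median of −0.11, so the direction is not particular to *Rps21*.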

How the results depend on the processing

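The counts of members called between the lines kept their size without doxycycline (38 to 60 of 77 over all alternatives, 54 as reported). Scaling to library totals alone gave the lowest, 38, of which all 38 were among the 54. With doxycycline the count was 25, and 38 without the third wild-type control and the second wild-type library with doxycycline. Leaving out 1 library in turn gave 44 to 60 and 19 to 35. The mutant response held 0 calls under every alternative run. The wild-type response, with 1 call, had 3 without the filter, 6 with limma-voom, 0 without those 2 libraries, and 0 to 14 with 1 library left out. The difference of the responses, with 1, had 3 without the filter and 0 with library totals. It had 0 without those 2 libraries and 0 to 8 with 1 left out. These counts under alternatives are given without the share of all genes called in the same fit. Leaving out a library that stands high or low in its group moves them by construction. Replicate numbers did not pair the samples (correlations of −0.071 to 0.079 over 18 pairs), and a fit with the replicate block called 1, 0, 1, 55 and 25 members in the 5 comparisons.

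The line difference in the share was −0.747 points over TMM-adjusted library sizes (exact permutation p = 0.02). Over library totals it was −0.569 without those 2 libraries (exact permutation p = 0.02), and −0.640 to −0.356 with 1 left out. The −0.640 was without the second wild-type library with doxycycline, the lowest of its line, which widens the gap by construction. Over TMM-adjusted sizes the share differed by −1.07 points without doxycycline. Without those 2 libraries the wild-type response of the share was 0.118 and the doxycycline difference within lines 0.187 instead of −0.0458. Both rise by construction, since those are the highest wild-type control and the lowest wild-type library with doxycycline. With 1 left out the doxycycline difference within lines ran from −0.167 to 0.117. It was 0.0251 without the third wild-type control and 0.0413 without the third mutant control. Without the second wild-type library with doxycycline it was 0.117.

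The subunit ratio without the members on chromosomes 8 and 11 differed between the lines by −0.00860 without doxycycline, −0.00747 with it and −0.00804 within treatments. With members outside the symbol rule added it differed by −0.0491 and −0.0428. Without the 5 members with most counts it differed by −0.020 between the lines with doxycycline, by −0.0066 in the wild-type response and by −0.00029 for doxycycline within lines, where all members gave 0.0033. Apart from what each alternative leaves out, the cause was not tested. At this depth, changes of members with under 100 counts have wide errors.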
